A study of Drosophila melanogaster with 14 samples.

Results

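The genes described here encode the proteins of the cytoplasmic ribosome of Drosophila melanogaster, apart from those with a well-known duplicate. A gene was included where its symbol began with RpL or RpS and a digit or with RpLP0, RpLP1 or RpLP2, or was sta or sop. The 10 genes of duplicated pairs (RpL22 and RpL22-like, RpS5a and RpS5b, RpS10a and RpS10b, RpS19a and RpS19b, RpL37a and RpL37b) were left out. The rule used symbols alone and no measured value. It found 83 genes among the 16078 that could be joined across all libraries: 46 named for the large subunit, 33 for the small subunit (with sta, and with sop listed under its other name RpS2), the 3 stalk genes RpLP0, RpLP1 and RpLP2, and RpLP0-like.

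A ribosome is built in the nucleolus from ribosomal RNA and one copy of most ribosomal proteins, which are made in the cytoplasm and imported. The genes for these proteins are transcribed strongly in growing and dividing cells, and in Drosophila the loss of a single copy of many of them slows development (the Minute phenotype). In the testis, spermatogonia divide by mitosis, the resulting spermatocytes grow and transcribe widely, and transcription largely ceases as spermatids form after meiosis.

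Polyadenylated RNA from 50 dissected testes of 3-day-old adult males, kept at 23 °C, was sequenced per library, with 2 libraries for each of 7 genotypes: comr, mip40, can, mip40/bam, bam and CG9879 mutants, and wild type (wt). As background, bam is needed for spermatogonia to stop dividing and become spermatocytes, comr and mip40 encode subunits of the testis meiotic arrest complex, and can encodes a testis-specific subunit related to those of the general transcription factor TFIID; spermatocytes without comr, mip40 or can do not enter meiosis. The labels give the mutated gene and not the allele, and no treatment. They number 2 replicates per genotype without saying how these were made, so p-values measure the spread between these libraries, which may be technical. Levels are FPKM, fragments per kilobase of transcript scaled by the mapped fragments of the library, and differences are log2 fold changes of FPKM + 1 from a limma fit over all 14 libraries and 12971 genes. A gene was called at a Benjamini-Hochberg adjusted p under 0.05, and all 83 ribosomal protein genes passed the filter on low values.

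The libraries held between 3120000 and 7690000 fragments, as implied by the deposited confidence intervals, a figure that treats isoform uncertainty as counting error. The CG9879 transcript was at 0.756 and 1.30 FPKM in CG9879 libraries, against 64.0 and 53.4 in wt libraries, whereas comr and can transcripts were higher in the libraries labelled with their mutation than in wt, mip40 transcripts were at 20.8 and 20.2 FPKM in mip40 against 22.8 and 20.9 in wt and at 25.8 and 27.4 in mip40/bam against 59.1 and 60.4 in bam, and bam transcripts at 2.91 and 0 in bam against 3.14 and 2.81 in wt. The alleles are not given, so a transcript level that is not lower does not go against a label. Spermatid markers such as dj and fzo made up 2.19 to 2.25% of the summed FPKM in CG9879 libraries, 0.350 to 0.839% in comr, mip40 and can libraries and at most 0.0016% in mip40/bam and bam libraries, against 2.25 to 2.26% in wt. In bam and mip40/bam libraries the spermatogonial marker vas averaged 534 and 426 FPKM, against 15.8 FPKM in wt. Accessory gland transcripts, from an organ beside the testis, took 1.86% of comr replicate 2, 0.626% of CG9879 replicate 2, 0.503% of can replicate 1 and 0.380% of wt replicate 1, and at most 0.0486% of any other library. The mutants differ in which germ cells the testis holds, and in bulk RNA more cells of a type and more RNA per cell cannot be told apart. The tables of the CG9879 and mip40/bam libraries list 17480 genes and those of the other 10 libraries list 16745, so that annotation and genotype cannot be told apart for these groups.

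The ribosomal protein genes formed 3 tiers. Together they made up 26.4 and 25.5% of the summed FPKM in mip40/bam libraries and 25.6 and 25.0% in bam libraries, 7.73 and 7.14% in comr, 7.01 and 6.95% in mip40 and 7.77 and 7.84% in can libraries, and 2.77 and 2.63% in CG9879 and 2.72 and 2.60% in wt libraries. For 79 of the 83 genes all 4 mip40/bam and bam libraries lay above all 6 comr, mip40 and can libraries, a rule met by 18.4% of all genes tested. For 79 genes those 6 libraries lay above all 4 CG9879 and wt libraries (40.6% of all genes tested), and 78 genes met both rules (10.5%). The 5 exceptions were RpL10Aa, RpS28a, RpS28-like, RpL7-like and RpS14b. As deposited, the mean level was highest in mip40/bam for 79 of the 83 genes and lowest in wt for 66. The share of all genes with these extremes was not counted. The order of single genes depends on library scaling. With equal summed FPKM 15 genes were called higher and 4 lower in mip40/bam than in bam. With median-of-ratios scaling 32 were called higher and 8 lower in mip40 than in wt.

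The median FPKM of the 83 genes was 590 and 620 in comr libraries, 478 and 475 in mip40, 600 and 581 in can, 3563 and 3465 in mip40/bam, 2508 and 2494 in bam, 238 and 218 in CG9879, and 209 and 178 in wt. Replicates of a genotype were close over the 80 genes other than RpL10Aa, RpS28a and RpS28-like. The median absolute difference between them, in log2 FPKM + 1, was between 0.07 in mip40/bam and 0.14 in wt libraries.

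**Figure D1:**
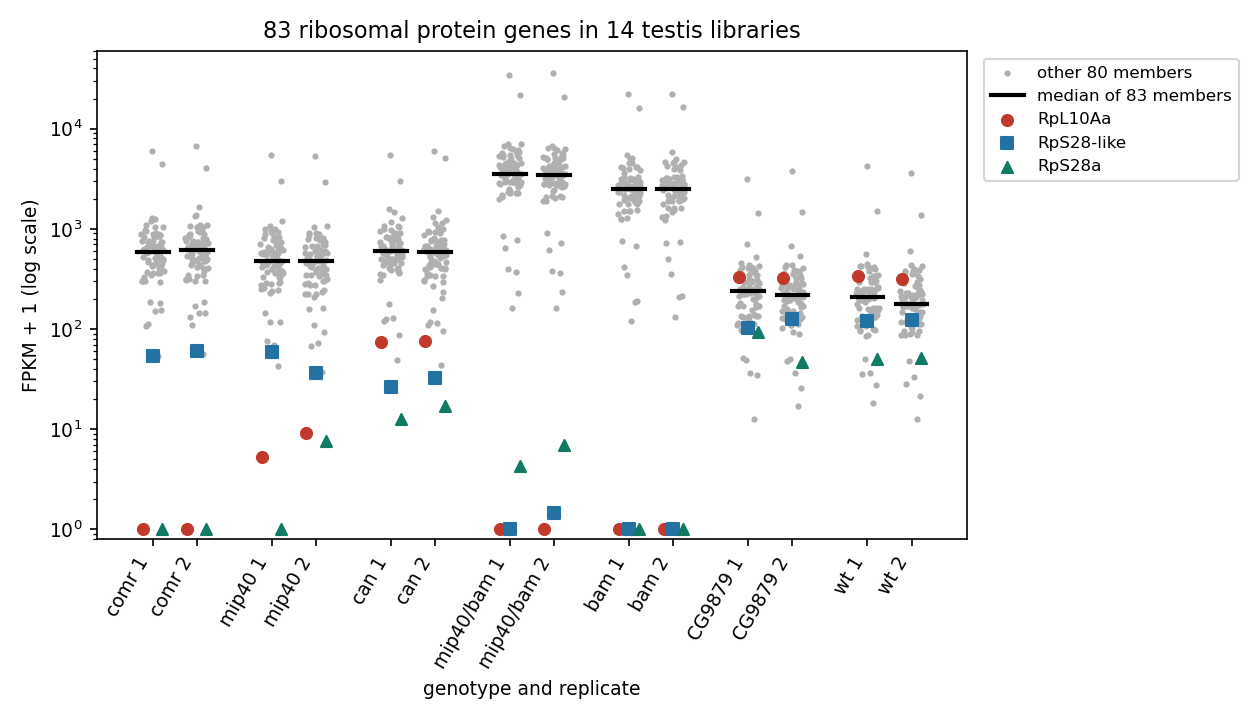
FPKM + 1 (log axis) of the 83 ribosomal protein genes in each of the 14 libraries, grouped by genotype. Grey points are 80 genes, black bars the median of all 83, and coloured symbols RpL10Aa, RpS28-like and RpS28a. The medians are 3563 and 3465 FPKM in mip40/bam and 2508 and 2494 in bam libraries, while the 3 coloured genes are at or near 0 there and highest in CG9879 and wt libraries.

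In testes without bam, which hold spermatogonia but few later germ cells, 80 of the 83 genes were higher than in wt and 3 were lower (44.2% of all genes tested were called higher and 34.4% lower). The median log2 fold change was 3.65, or 12.5-fold, beside 0.21 over all genes tested, and 68 of the 83 genes lay within 0.5 of that median. The largest was RpL18, a large subunit protein, with 1873 and 1916 FPKM in bam libraries against 98.9 and 85.5 in wt (log2 fold change 4.35 ± 0.07 SE, limma adjusted p = 1.93e-11). Both bam libraries lay above both wt libraries for RpL18, which was picked out after its values were seen. With median-of-ratios scaling of the libraries the members' median was 2.52 and that of all genes -0.43.

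In testes with arrested spermatocytes most of the 83 genes were again higher than in wt, with smaller medians. In comr testes 79 genes were higher and 3 lower than in wt (48.5% and 27.9% of all genes), with a median log2 fold change of 1.64, beside 0.59 over all genes. In mip40 testes 79 were higher and 3 lower (47.8% and 25.4%), with a median of 1.28 beside 0.46. In can testes 79 were higher and 2 lower (51.0% and 20.4%), with a median of 1.55 beside 0.62. These differences depend on how libraries are scaled: with median-of-ratios scaling the members' medians were 0.40 in comr, 0.18 in mip40 and 0.37 in can, and those of all genes -0.20, -0.24 and -0.17. The distance between the members and all genes was then 0.60, 0.42 and 0.54, against 1.05, 0.82 and 0.93 as deposited. Under that scaling 61 genes were higher and 5 lower in comr, 32 and 8 in mip40, and 57 and 7 in can. The shares of all genes called under it were not counted, so these counts have no background beside them. Quantile normalization moved the medians the other way, to 2.16, 1.96 and 2.42.

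Set against bam testes rather than wt, the arrested testes had lower levels of nearly all the genes. In comr testes 2 were higher and 78 lower than in bam (34.7% and 25.0% of all genes), with a median log2 fold change of -2.05, beside 0.10 over all genes. In can testes 3 were higher and 79 lower (47.5% and 27.1%), with a median of -2.06 beside 0.50. Between mip40 and mip40/bam testes, which share the mip40 mutation, 2 were higher and 80 lower in mip40 (41.4% and 29.1%), with a median of -2.86 beside 0.20. All 3 medians stayed below 0 under each scaling tried, and they were smallest in size with quantile normalization, at -1.02, -0.73 and -1.23.

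The mip40/bam testes had somewhat more of these transcripts than bam testes. As deposited, 69 genes were higher and 0 lower (16.4% and 19.7% of all genes), with a median log2 fold change of 0.48, or 1.40-fold, beside 0 over all genes. At an unadjusted limma p under 0.05, 71 were higher and 0 lower, beside 19.3% and 22.9% of all genes. For 79 genes both mip40/bam libraries lay above both bam libraries, as for 28.9% of all genes tested. The size depends on the scaling of libraries. With median-of-ratios scaling the median was 0.53 beside 0 over all genes. With equal summed FPKM it was 0.07 beside -0.17, with 15 higher and 4 lower. With quantile normalization it was 0.06 beside 0.01, with 8 higher and 4 lower. The shares of all genes called under these scalings were not counted. The summed FPKM was 1297043 and 1290901 in mip40/bam libraries and 917233 and 954893 in bam libraries.

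Among the single genes, RpL12, which lies at the base of the stalk, had 4070 and 3774 FPKM in mip40/bam libraries against 2036 and 2048 in bam (log2 fold change 0.94 ± 0.10 SE, limma adjusted p = 9.53e-05). RpLP0-like had 370 and 359 FPKM in mip40/bam against 187 and 206 in bam libraries (0.89 ± 0.18, adjusted p = 0.00437). In both cases the groups did not overlap, and these were, with the very low RpS28a, the largest called differences among the 83 genes. RpL38 had 4306 and 4066 FPKM in mip40/bam against 5044 and 5000 in bam libraries, both mip40/bam libraries lying below, and RpL15 had 4971 and 5143 FPKM in mip40/bam against 4971 and 4696 in bam, where one library of each group was nearly equal. Neither passed the limma test on levels as deposited (log2 fold changes -0.26 and 0.07, adjusted p = 0.124 and 0.756). With the members' median of every library set equal, an alternative added after the values were seen, both were lower in mip40/bam, by -0.75 for RpL38 (adjusted p = 0.000439) and by -0.42 for RpL15 (adjusted p = 0.00528). RpL38 and RpL15 were picked out after their values were seen. On that scale RpL24-like (-0.36, adjusted p = 0.0118), sta (-0.31, 0.0195), RpS28b (-0.26, 0.011) and RpL10Ab (-0.22, 0.0195) were also lower in mip40/bam. Others were higher there, namely RpL12 (0.45, adjusted p = 0.000352), RpS2 (0.37, 0.0236) and RpL40 (0.24, 0.0191). Setting the median equal places members on both sides of it by construction, so these values rank members against each other alone.

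CG9879 testes were close to wt. There 11 genes were higher and 0 lower than in wt (4.26% and 7.24% of all genes), with a median log2 fold change of 0.16 beside 0 over all genes, and 82 of the 83 lay within 0.5 of that median. At an unadjusted limma p under 0.05, 30 were higher and 1 lower, beside 10.2% and 14.6% of all genes. RpL34a, a large subunit protein, had 51.0 and 46.5 FPKM in CG9879 libraries against 34.5 and 27.0 in wt (log2 fold change 0.66 ± 0.12 SE, adjusted p = 0.00922), RpL3, which lies near the catalytic centre, had 250 and 235 against 160 and 175 (0.53 ± 0.08, adjusted p = 0.00405), and RpL34b had 135 and 131 against 97.2 and 95.4 (0.47 ± 0.08, adjusted p = 0.00552). The groups did not overlap for these 3 genes, which were named for having the largest called differences here. The share of all genes without overlap was not counted, so this adds no support to the test. The count of 11 fell to 3 in a fit of CG9879 and wt libraries alone, to 3 without CG9879 replicate 1 and to 4 without wt replicate 2. It was 20 with median-of-ratios scaling, 4 with quantile normalization and 0 with crossed replicate numbers as a block. Without the 4 libraries holding accessory gland transcripts, which leaves 1 library in each arm, the log2 fold changes of RpL34a, RpL3 and RpL34b were 0.89, 0.51 and 0.50, and none was called.

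**Figure D2:**
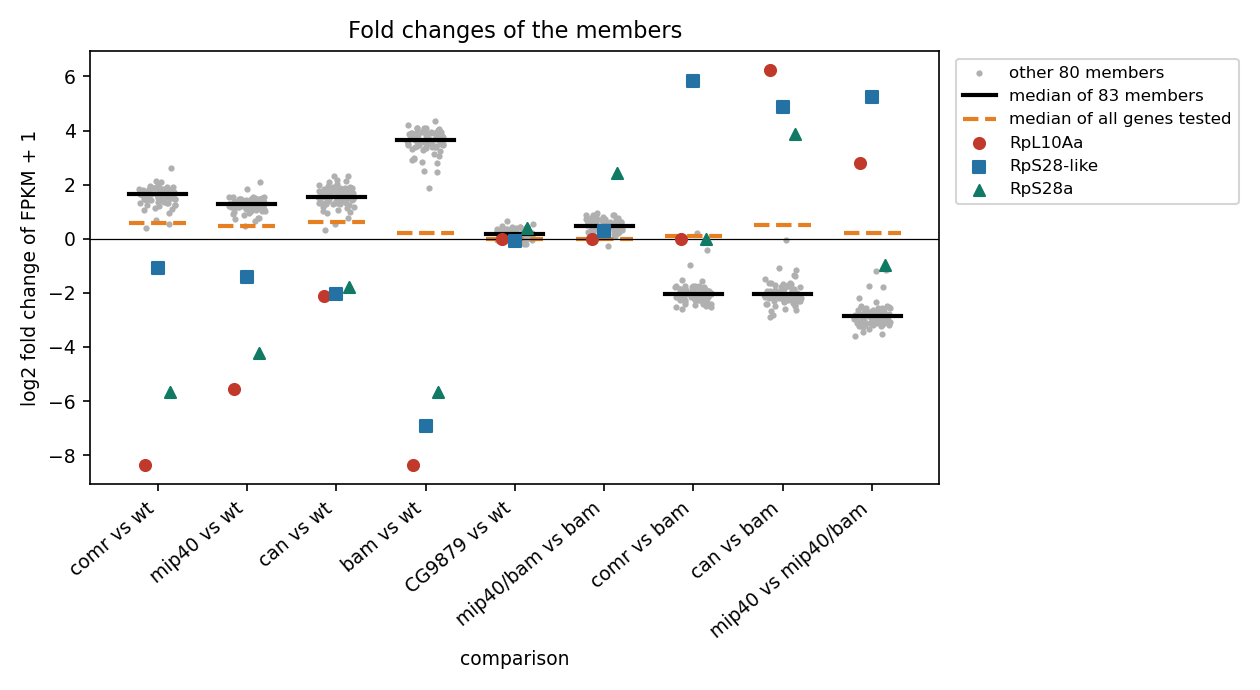
Log2 fold change of FPKM + 1 of the 83 ribosomal protein genes in 9 comparisons, named with the numerator first. Grey points are 80 genes, black bars the median of all 83, dashed bars the median of all genes tested, and coloured symbols RpL10Aa, RpS28-like and RpS28a, whose values against a group listed at 0 depend on the pseudocount. The median is 3.65 in bam vs wt, 1.28 to 1.64 in the arrest mutants vs wt, 0.16 in CG9879 vs wt and 0.48 in mip40/bam vs bam as deposited (0.06 after quantile normalization).

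Both subunits followed the same pattern. Of the 46 large subunit genes, 45 were higher and 1 lower in bam than in wt, with a median log2 fold change of 3.71, and of the 33 small subunit genes 31 were higher and 2 lower, with a median of 3.53. In comr against wt the counts were 45 higher and 1 lower for the large subunit (median 1.67) and 30 higher and 2 lower for the small (median 1.56). The median level of the small subunit genes was 651 and 649 FPKM in comr libraries and 230 and 211 in wt, and that of the large subunit genes 541 and 560 in comr and 195 and 173 in wt. The 10 genes on the X chromosome, of which 10 were higher in bam and 9 in comr than in wt, had medians of 3.72 and 1.56. Of all genes tested, 44.2% were called higher and 34.4% lower in bam, and 48.5% and 27.9% in comr. The medians over all genes were 0.21 and 0.59.

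Within the small subunit, RpS6, the protein phosphorylated downstream of growth signalling, had 1991 and 2125 FPKM in bam libraries, against 130 and 128 in wt (log2 fold change 3.98 ± 0.10 SE, limma adjusted p = 3.45e-10). RpS3, which sits at the mRNA entry channel, had 2118 and 2382 FPKM in bam against 202 and 178 in wt (3.56 ± 0.10, adjusted p = 5.53e-10). RpS12, known in Drosophila for its part in cell competition, had 2352 and 2408 FPKM in bam against 231 and 217 in wt (3.40 ± 0.06, adjusted p = 2.18e-11). All 3 differed far beyond the replicate spread, and in comr against wt they were higher by 1.5, 1.42 and 1.64. RpS2, whose loss gives the string of pearls phenotype of arrested egg chambers, had 2758 and 3040 FPKM in bam and 881 and 807 in comr libraries, against 229 and 239 in wt. The log2 fold changes were 3.62 and 1.84. The product of sta (stubarista) is the small subunit protein SA, and its levels were 1989 and 1926 FPKM in bam and 406 and 403 in comr, against 131 and 125 in wt. Both sta and RpS2 were thus ordered as the median gene, with no overlap between these 3 genotypes.

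In the large subunit, RpL5 and RpL11 bind the 5S ribosomal RNA. RpL5 had 2338 and 2436 FPKM in bam and 517 and 539 in comr libraries, against 177 and 148 in wt, and RpL11 had 2139 and 2036 in bam and 505 and 496 in comr, against 152 and 148 in wt. Their log2 fold changes were 3.87 and 3.79 in bam and 1.70 and 1.73 in comr, close to each other in both comparisons. The log2 fold change of RpL40 and RpS27A, both made as fusions to ubiquitin, was 3.51 and 3.47 in bam against wt and 1.76 and 1.47 in comr against wt. RpL40 had 2526 and 2494 FPKM in bam against 238 and 203 in wt, and RpS27A had 3891 and 4662 in bam against 347 and 423 in wt. With median-of-ratios scaling RpS27A was no longer called in comr.

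The P stalk, formed by RpLP0 with dimers of RpLP1 and RpLP2, recruits translation factors to the ribosome. RpLP0 had 1519 and 1546 FPKM in bam, 437 and 415 in comr, 394 and 375 in mip40 and 500 and 457 in can libraries, against 112 and 102 in wt. RpLP1 had 4143 and 4604 FPKM in bam, 964 and 876 in comr, 590 and 552 in mip40 and 576 and 610 in can, against 294 and 287 in wt. RpLP2 had 2506 and 3053 FPKM in bam, 869 and 669 in comr, 646 and 689 in mip40 and 680 and 676 in can, against 395 and 391 in wt. All mutant libraries named lay above both wt libraries for these 3 genes, but the size differed between partners. The log2 fold changes in bam, comr, mip40 and can were 3.83, 1.99, 1.84 and 2.16 for RpLP0, 3.90, 1.66, 0.97 and 1.02 for RpLP1, and 2.81, 0.95, 0.76 and 0.78 for RpLP2, and with median-of-ratios scaling RpLP2 turned to -0.28 in comr, -0.35 in mip40 and -0.40 in can, and RpLP1 to -0.14 in mip40 and -0.15 in can. RpLP2 made up 45.4% ± 2.88 of the summed FPKM of RpLP1 and RpLP2 in comr, 53.9% ± 2.29 in mip40, 53.4% ± 1.09 in can, 44.1% ± 0.700 in mip40/bam, 38.8% ± 1.54 in bam and 58.7% ± 1.81 in CG9879 testes, against 57.5% ± 0.255 in wt (SD, n = 2 each), and these shares do not depend on the scaling of libraries.

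By the mean over all 14 libraries the highest levels belonged to RpL41, RpL39 and RpS29, among the smallest ribosomal proteins. RpL41 and RpL39 were highest in every genotype, whereas the next was RpL38 in comr and can, RpS27A in mip40 and RpS29 in the others. RpL41 had 22431 and 22081 FPKM in bam and 6055 and 6741 in comr, against 4224 and 3600 in wt, and RpL39 had 16230 and 16544 in bam against 1492 and 1384 in wt. RpS29 had 5508 and 5829 FPKM in bam against 559 and 603 in wt. Their longest annotated transcripts have 320, 288 and 1007 bases, and FPKM of transcripts close to the fragment length are the least certain. RpL41 had the smallest log2 fold change in mip40 vs wt among the 80 genes other than RpL10Aa, RpS28a and RpS28-like: it was 0.47 there, 2.51 in bam and 0.71 in comr (limma adjusted p = 0.00518 in mip40 and 0.00035 in comr), and with median-of-ratios scaling it turned to -0.64 in mip40 and -0.53 in comr. The order of the levels was nearly the same in all genotypes. Across the 80 genes, Spearman's rho of mean levels between genotypes lay between 0.853 (can with bam) and 0.972 (CG9879 with wt), a description over genes, which share their libraries.

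RpL10Aa, RpS28a and RpS28-like broke the common pattern, with their highest levels in CG9879 and wt testes. These 3 lay more than 1.5 on the log2 scale from the members' median in all 4 comparisons of bam, comr, can and mip40 with wt. A gene had to pass the limit in at least 2 of the 4. RpL7-like passed it in bam alone, at -1.78 from the median, and RpS14b, RpS14a and RpL41 passed it in none, at most 1.24, 1.19 and 1.13 below the median. The rule uses these same fold changes, so what follows is a description.

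RpL10Aa, the paralog of RpL10Ab and without introns, lies on arm 3R at 15037366 to 15038149 on the forward strand (dm6). It had 4.28 and 8.11 FPKM in mip40 libraries, 73.1 and 74.3 in can and 326 and 325 in CG9879, against 339 and 312 in wt, and was listed at 0 in all 6 comr, mip40/bam and bam libraries. Its level thus fell below both wt libraries in all mutants but CG9879, and within the arrest mutants it was highest in can. The log2 fold change in can was -2.13 ± 0.20 SE and in mip40 -5.56 ± 0.20 (limma adjusted p = 8.65e-06 and 1.83e-08), while no fold is given where the gene is listed at 0. RpL10Ab, the general copy, had 667 and 680 FPKM in can, 3123 and 2946 in bam and 830 and 826 in comr, against 313 and 288 in wt, and its log2 fold change in can, 1.16, turned to -0.02 with median-of-ratios scaling. RpL10Aa made up none of the summed FPKM of the pair in comr, mip40/bam and bam testes, 0.771% ± 0.353 in mip40, 9.86% ± 0.0105 in can and 52.5% ± 1.73 in CG9879, against 52.0% ± 0.0197 in wt (SD, n = 2 each).

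RpS28-like, on arm 2L at 9436804 to 9437227 on the forward strand and sharing exonic bases with CG3769, had 53.1 and 59.2 FPKM in comr, 57.4 and 35.1 in mip40, 25.3 and 31.4 in can and 102 and 126 in CG9879, against 118 and 123 in wt libraries. In mip40/bam it had 0 and 0.455 FPKM, and in bam it was listed at 0 in each replicate. The arrest mutants lay below both wt libraries, with log2 fold changes of -1.09 ± 0.24 SE in comr, -1.40 ± 0.24 in mip40 and -2.05 ± 0.24 in can (limma adjusted p = 0.00239, 0.000511 and 4.07e-05). The difference in comr missed the threshold with a pseudocount of 0.1 (limma adjusted p = 0.148). When the 4 libraries holding accessory gland transcripts were left out, which leaves 1 library in each arm, the difference in comr was -1.19.

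RpS28a, without introns, lies on arm 3R at 30022345 to 30022648 on the reverse strand and had the lowest mean level of the 83 genes. It had 0 and 6.66 FPKM in mip40 libraries, 11.7 and 16.2 in can, 3.28 and 5.89 in mip40/bam and 92.8 and 46.2 in CG9879, against 49.1 and 51.0 in wt, and was listed at 0 in comr and bam libraries. The replicates of CG9879 and mip40 differed widely, and its call in can was not reached (log2 fold change -1.79 ± 0.77 SE, limma adjusted p = 0.0623). RpS28b, the X-linked and most abundant copy, had 2842 and 3099 FPKM in bam, 737 and 793 in comr and 714 and 712 in can, against 261 and 236 in wt. Of the summed FPKM of the 3 RpS28 genes, RpS28-like and RpS28a made up 6.83% ± 0.159 and none in comr testes, against 28.8% ± 1.64 and 12% ± 0.693 in wt (SD, n = 2 each).

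**Figure D3:**
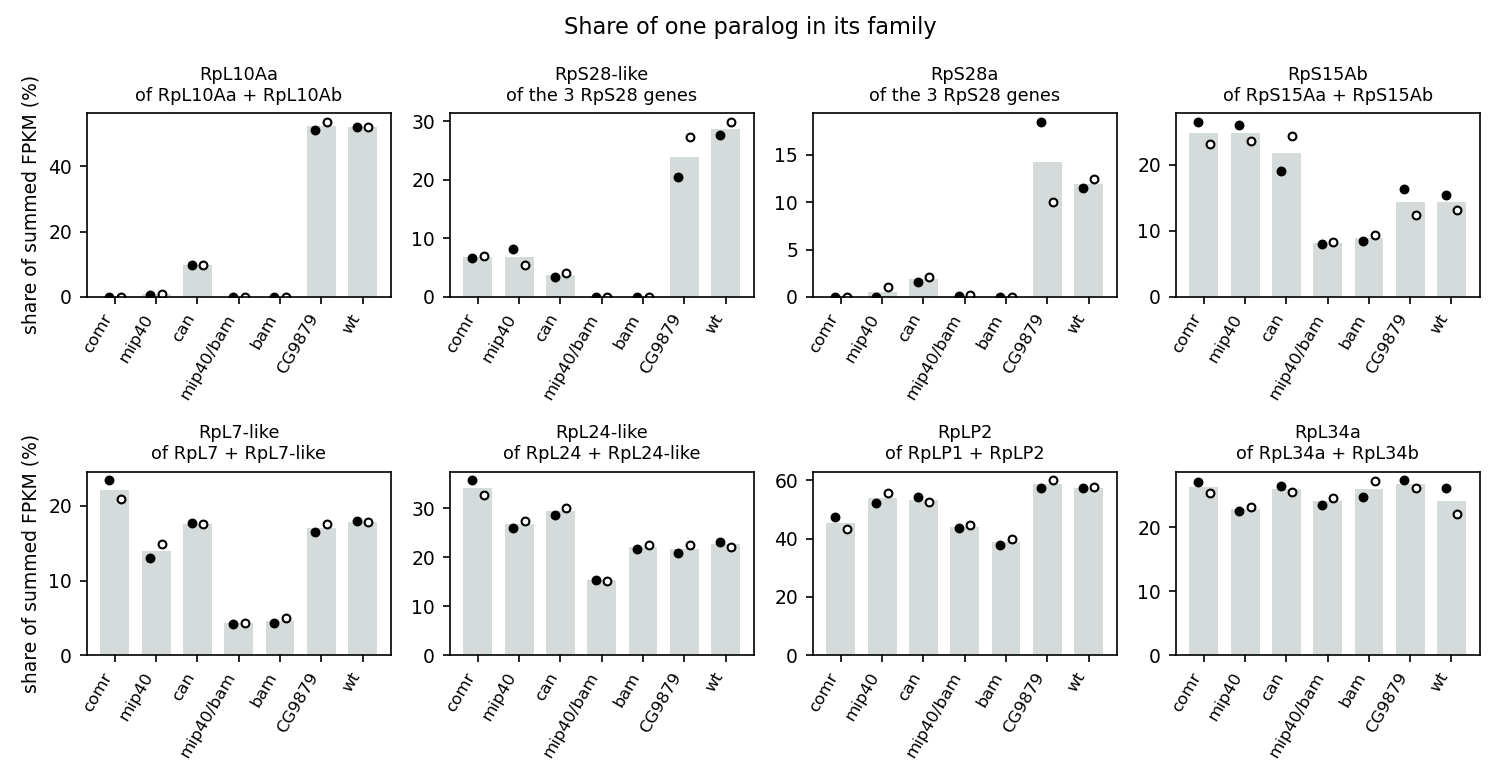
Share (%) of the summed FPKM of a gene family held by 1 paralog, in 7 genotypes. Bars are means of 2 libraries, filled and open points replicates 1 and 2, and axes start at 0. RpL10Aa holds none of its pair in comr, mip40/bam and bam testes, and 52.5% in CG9879 against 52.0% in wt. RpS15Ab holds 24.8% in comr and in mip40 and 21.7% in can testes against 14.3% in wt. RpL34a stays between 22.8 and 26.7%.

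Other paralogs kept the common direction but not its size. RpS15Ab, the copy of RpS15Aa without introns, had 155 and 144 FPKM in comr libraries, 115 and 92.5 in mip40, 189 and 213 in bam and 230 and 234 in mip40/bam, against 26.8 and 20.3 in wt. Its log2 fold change was 2.63 ± 0.17 SE in comr and 2.10 ± 0.17 in mip40, the largest of the 83 genes in both comparisons with wt (limma adjusted p = 3.77e-07 and 2.44e-06), and 3.05 in bam, below the median. Its share of the pair was 24.8% ± 2.34 in comr, 24.8% ± 1.67 in mip40, 21.7% ± 3.85 in can, 8.16% ± 0.161 in mip40/bam and 8.85% ± 0.638 in bam testes, against 14.3% ± 1.59 in wt (SD, n = 2 each). The comr, mip40 and can shares lay above, and the bam and mip40/bam shares below, those of both wt libraries.

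Relatives of yeast ribosome assembly factors also carry ribosomal protein symbols. RpL7-like, RpL24-like and RpLP0-like correspond to Rlp7, Rlp24 and Mrt4 of yeast, which take part in building the large subunit. RpL7-like had 149 and 143 FPKM in comr, 129 and 113 in can, 161 and 163 in mip40/bam and 120 and 130 in bam libraries, against 35.1 and 32.1 in wt. Its levels in comr, can and bam were thus close, but mip40 libraries lay below all of these, at 68.0 and 71.7 FPKM. By contrast, RpL7 had 486 and 539 FPKM in comr and 2687 and 2486 in bam, against 161 and 148 in wt. The log2 fold change of RpL7-like was 2.08 in comr and 1.87 in bam against wt and 0.22 ± 0.07 SE in comr against bam (limma adjusted p = 0.0296), the last turning to -0.29 with quantile normalization, beside -2.33 for RpL7. With the members' median of every library set equal, RpL7-like stood 2.27 higher in comr than in bam (adjusted p = 4.16e-09). RpL24-like had 184 and 170 FPKM in comr and 348 and 357 in bam, against 48.9 and 47.0 in wt, and its share of the summed FPKM with RpL24 was 34.3% ± 2.14 in comr and 15.4% ± 0.155 in mip40/bam against 22.7% ± 0.803 in wt testes (SD, n = 2 each). RpLP0-like instead followed its namesake, with 187 and 206 FPKM in bam and 53.0 and 55.6 in comr against 17.5 and 11.7 in wt libraries.

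RpL34a and RpL34b kept a nearly fixed ratio: RpL34a held 26.2% ± 1.25 of the pair in comr, 22.8% ± 0.463 in mip40, 26.0% ± 0.604 in can and 26.0% ± 1.67 in bam testes, against 24.1% ± 2.90 in wt (SD, n = 2 each). RpS14a and RpS14b are near-identical neighbours on the X chromosome, and the authors' counting could split their reads, so their values are uncertain. RpS14a had 668 and 737 FPKM in bam and 183 and 185 in comr, against 145 and 111 in wt, and RpS14b had 748 and 715 in bam, 107 and 132 in comr and 119 and 109 in can, against 94.5 and 86.4 in wt. Both rose in bam, by 2.46 and 3.00. In comr RpS14a was not called (log2 fold change 0.54, limma adjusted p = 0.193) and RpS14b was (0.40 ± 0.13 SE, adjusted p = 0.0224), and with median-of-ratios scaling RpS14b turned to -0.83 in comr and -0.84 in can.

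Across the 14 libraries, Pearson's r between a gene and the members' median, in log2 FPKM + 1, was at least 0.99 for 64 of the 83 genes and for 26 of 7880 other genes with a mean of at least 10 FPKM. The libraries form tiers, so this is a description without a test. Among the 83 the lowest values were -0.97 for RpS28-like, -0.83 for RpL10Aa and -0.63 for RpS28a, then 0.83 for RpL7-like and 0.90 for RpS15Ab. The most similar other genes were RpS10b and RpS5a, from the duplicated pairs left out, CG9769, ATPsyn-beta, a subunit of the mitochondrial ATP synthase, and Ef1beta, a translation elongation factor, with r between 0.9955 and 0.9964. RpS5a averaged 1855 FPKM in bam and 455 in comr against 153 in wt testes, and Ef1beta 746 in bam and 234 in comr against 98.6 in wt.

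Genes that build ribosomes or work with them were compared by counts and medians, in lists taken from general knowledge. All 25 ribosome biogenesis genes were higher in bam than in wt (median log2 fold change 3.60) and in comr than in wt (2.01). Among them Nop56 and nop5, core proteins of the box C/D particles that guide rRNA methylation, averaged 290 and 288 FPKM in bam and 40.1 and 50.2 in comr, against 14.0 and 14.1 in wt. Of 25 translation initiation genes 21 were higher and 1 lower in bam (2.08), and of 8 elongation and release genes 7 were higher and 0 lower (2.72), the exception being eRF1, at a log2 fold change of 0. Of 5 RNA polymerase I genes 5 were higher in bam (2.85) and 5 in comr (1.85). All 10 ribosomal protein genes of duplicated pairs were higher in bam (3.46) and in comr (1.62). For comparison, the medians over all genes tested were 0.21 in bam and 0.59 in comr. Of all genes tested, 44.2% were called higher and 34.4% lower in bam, and 48.5% and 27.9% in comr.

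Mitochondrial ribosomal protein genes, which serve the separate ribosome of mitochondria, had another profile. Of 71 tested, 64 were higher and 2 lower in bam than in wt (44.2% and 34.4% of all genes), with a median log2 fold change of 1.68 beside 0.21. In comr 67 were higher and 0 lower than in wt (48.5% and 27.9%), with a median of 1.98 beside 0.59. Against bam testes, 34 of them were higher and 9 lower in comr (34.7% and 25.0% of all genes), with a median of 0.43 beside 0.10. There 78 of the 83 cytoplasmic genes were lower, with a median of -2.05. The direction of the mitochondrial genes differed between the arrest mutants. In can against bam 25 were higher and 16 lower (47.5% and 27.1%), with a median of 0.14 beside 0.50. In mip40 against mip40/bam 7 were higher and 45 lower (41.4% and 29.1%), with a median of -0.74 beside 0.20. The median of mean levels was 68.0 FPKM in comr and 49.7 in bam, against 14.1 in wt, for the mitochondrial genes, and 613 in comr and 2550 in bam, against 190.0 in wt, for the cytoplasmic ones. The ribosome biogenesis list lay between: in comr against bam 0 were higher and 19 of 25 lower, with a median of -1.08.

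**Figure D4:**
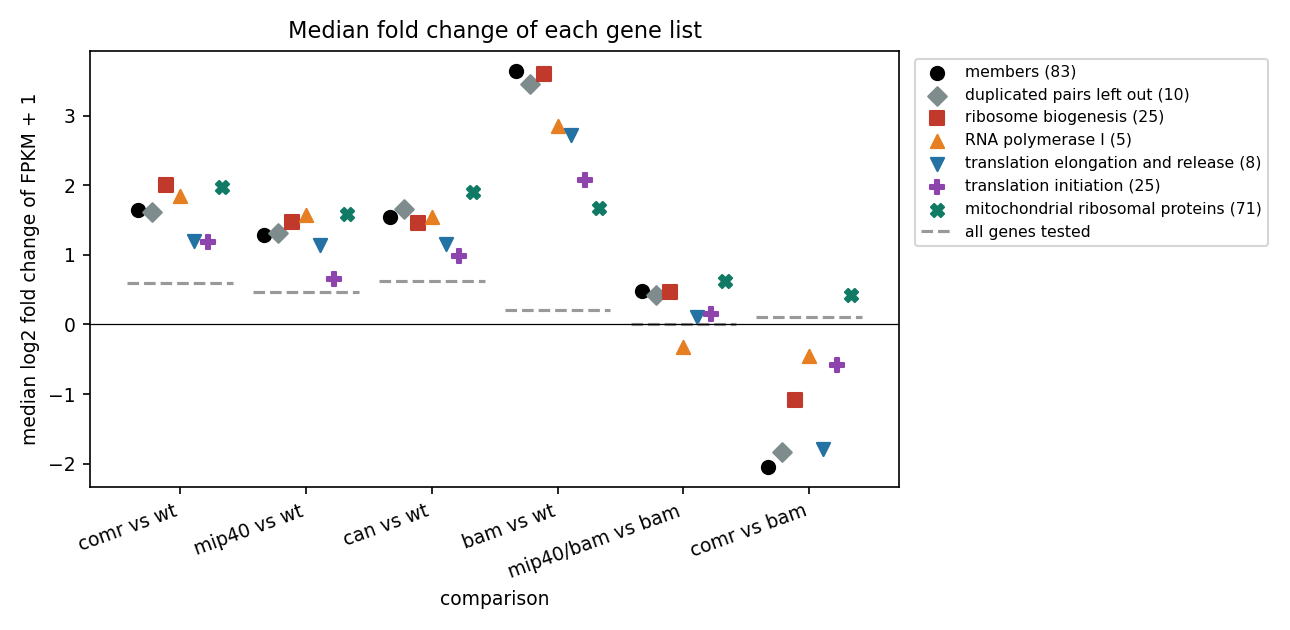
Median log2 fold change of FPKM + 1 of 7 gene lists (number of genes tested in brackets) in 6 comparisons, with dashed lines for all genes tested. The cytoplasmic ribosomal protein genes and the biogenesis genes lie highest in bam vs wt, at 3.65 and 3.60, and the mitochondrial ribosomal protein genes lie above 0 in comr vs bam, at 0.43, where the cytoplasmic ones are at -2.05. The can vs bam and mip40 vs mip40/bam comparisons are not drawn.

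The 83 genes share features that the rule did not use. They lie on all major arms, with 19 on 2L, 19 on 2R, 14 on 3L, 20 on 3R, 10 on X and 1 on chromosome 4. Their longest annotated transcripts have a median of 850 bases. Introns are present in 79, and the 4 without are RpL10Aa, RpS28a, RpS15Ab and RpLP2, of which 3 stand apart in the values above and RpLP2 had among the smallest log2 fold changes. RpS28-like, which also broke the pattern, has 1 intron, and RpL7-like, RpS14a, RpS14b and RpL41 have 2 each. The share of all genes without introns was not counted, and a link between introns and levels was not tested. Small nucleolar RNA genes, which guide the modification of ribosomal RNA, lie inside 27 of the 83 genes (32.5%), with 60 such genes in all, against 0.60% of all 13986 protein-coding genes annotated. Exonic bases are shared with another annotated gene in 30 of the 83, among them RpL12 and RpL39, which overlap each other, and without knowledge of whether reads were assigned by strand their counts cannot be fully told apart.

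In the authors' deposited tables of transcripts, at their own significance call, 78 of the 83 genes had a transcript higher and 3 a transcript lower in bam than in wt, beside 22.9% and 21.2% of all transcripts tested. The authors' deposited tables gave 47 higher and 5 lower in comr (21.0% and 18.8%), 46 and 3 in mip40 (22.6% and 24.5%), 58 and 4 in can (19.3% and 23.3%), 0 and 0 in CG9879 (0.9% and 0.7%) and 66 and 1 in mip40/bam against bam (15.2% and 16.2%). RpL10Aa was lower in bam, comr, mip40 and can in the authors' deposited table, at 4.83 in mip40 against 448 in wt and 57.1 in can against 459 in wt. RpS14b, higher in comr in the fit above, was lower there in the authors' deposited table, at 64.9 in comr against 108 in wt (q = 0.0117). It was not the only gene to differ. The authors' deposited values for RpL41, called higher in the fit, were 4664 in comr against 5661 in wt and 4235 in mip40 against 5400, neither significant. A transcript of RpS14a, not called in comr in the fit, was lower there in the authors' deposited table, at 87.2 against 145 in wt (q = 0.0364).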

How the data were processed

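Each library has a deposited table of FPKM per gene in the Cufflinks format, and the authors also deposited Cuffdiff tables of FPKM, p-values and q-values per transcript for pairs of genotypes, per the file headers. TopHat, Cufflinks, Cuffdiff and the builds dm3 and dm6 are listed in the submitters' processing notes. The sources used here do not give versions or whether fragments were assigned by strand. FPKM are not counts, so no count model was used. Genes were joined by symbol and place (16078), filtered at 1 FPKM in at least 2 libraries (12971) and fitted as log2(FPKM + 1) with limma 3.58.1 (trend) in R 4.3.3 over all 14 libraries, with 7 residual degrees of freedom, two-sided, and Benjamini-Hochberg adjustment over all genes. A fold change on this scale understates changes of low genes. The scripts were tested on simulated data. Depth was 3120000 to 7690000 implied fragments per library.

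Genes named were those breaking the pattern by over 1.5, called against the median, highest or lowest in mean level, of set roles, paralogs, or most changed in mip40/bam vs bam and CG9879 vs wt; RpL18, RpL38 and RpL15 were added after their values were seen. The members and lists were chosen with earlier results of these data known. Alternatives were 3 other scalings, a pseudocount of 0.1, no filter, a replicate block, fits of fewer groups and leaving out libraries. Gene positions come from the BDGP6 annotation, in which 4 members were matched by symbol. Promoter sequences were not analysed here.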

Additional observations from a re-analysis of the deposited data

Results flagged for a closer look

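As deposited, mip40/bam differed from bam to another extent than mip40 from wt, by a test of the difference itself. The direction of this difference depended on library scaling. The mip40 and wt testes also hold different germ cells, so the mutation alone is not measured there. In mip40/bam against bam the median log2 fold change was 0.48, and in mip40 against wt it was 1.28. For the first minus the second, the limma fit called 3 genes higher and 71 lower (25.9% and 44.1% of all genes tested). The median was -0.73 beside -0.49 over all genes, a distance of -0.24. With median-of-ratios scaling the direction turned round, with 45 higher and 1 lower, where the share of all genes called was not counted. The median was then 0.42 beside 0.35 over all genes, a distance of 0.07. The 3 genes higher as deposited were RpL10Aa, RpS28a and RpS28-like, listed at or near 0 in bam libraries. The part that library scaling or annotation plays in this difference was not tested further.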

How the results depend on the processing

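With median-of-ratios scaling the medians were 2.52 (bam), 0.40 (comr), 0.37 (can) and 0.18 (mip40) against wt. They were -2.16 in comr vs bam and 0.42 for the difference between the 2 mip40 comparisons. Counts then were 5 lower in comr, 7 lower in can, 32 higher and 8 lower in mip40, 20 higher in CG9879, 1 higher in comr vs bam, and 45 higher and 1 lower for that difference. With quantile normalization the medians were 3.16, 2.16, 2.42 and 1.96 in the same order, 0.06 in mip40/bam vs bam, -1.02 and -0.73 in comr and can vs bam, -1.23 in mip40 vs mip40/bam and -1.94 for the difference, with 4 higher in CG9879, 8 higher and 4 lower in mip40/bam and 1 higher in comr vs bam. With equal summed FPKM they were 3.46, 1.72, 1.72 and 1.58, 0.07, -1.78 and -1.70, -1.95 and -1.45, with 7 higher in CG9879 and 15 higher and 4 lower in mip40/bam. The cause of these shifts was not tested, and the shares of all genes called were counted for the levels as deposited alone.

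Single genes were checked in 190 chosen gene and comparison pairs alone, so genes outside these pairs may also have turned. Among these pairs, those that turned with median-of-ratios scaling were RpL10Ab in can (-0.02), RpLP1 in can and mip40 (-0.15 and -0.14), RpLP2 in comr, can and mip40 (-0.28, -0.40 and -0.35), RpL41 in comr and mip40 (-0.53 and -0.64) and RpS14b in comr and can (-0.83 and -0.84). RpL7-like turned to -0.29 in comr vs bam with quantile normalization and to 0.30 in can vs bam with equal summed FPKM. In mip40/bam vs bam RpL15 turned to -0.46 and -0.35 under those settings and RpL24-like to -0.29 with equal summed FPKM. Of 2133 single-gene values over 190 gene and comparison pairs, 2004 kept their side of the threshold, with the same direction where called. Another 78 lost the call and 36 gained it, and 15 turned where either value was called. Direction was not compared where neither value was called.

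Fits of the compared groups alone gave 3 higher in CG9879 and 1 in comr vs bam. Without libraries over 0.5% accessory gland transcripts 1 was lower in mip40/bam, and without the 4 over 0.1%, chosen after seeing the data, which leaves single comr, can, CG9879 and wt libraries assumed to vary like the other groups, 1 was lower there, the CG9879 median was 0.26 and the difference -0.83. Leaving out 1 library gave 80 to 80 higher and a median of 3.59 to 3.69 in bam, 78 to 79 and 1.58 to 1.68 in comr, 78 to 79 and 1.5 to 1.64 in can, 79 to 80 and 1.17 to 1.35 in mip40, 3 to 11 and 0.09 to 0.21 in CG9879, and 49 to 60 and 0.46 to 0.50 in mip40/bam, with 1 to 2 higher in comr vs bam and 65 to 71 lower, with a median of -0.83 to -0.69, for the difference.

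The replicate numbers share only a number: the replicate block gave 80 higher in mip40 vs wt and 70 in mip40/bam vs bam, against 79 and 69, and moved no count by more than 1. The correlation of replicate differences was -0.43 in comr, -0.404 in CG9879 and -0.144 in mip40 vs mip40/bam, and crossed numbers, chosen after seeing the data, gave 78 higher, 0 higher and 78 lower.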
